A study of Mus musculus with 7 samples.

Results

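The genes described here code for proteins that coat lipid droplets or release fat from them: the perilipins *Plin1* to *Plin5*, the CIDE genes *Cidea*, *Cideb* and *Cidec*, the lipase gene *Pnpla2* and its activator *Abhd5*. They were taken by name, as probe sets with a single gene symbol on the list, where the older symbols M6prbp1 and Adfp stand for *Plin3* and *Plin2*. All 10 were found among the 19938 genes measured, each with 1 probe set. The cells were primary hepatocytes of male C57BL/6J mice, isolated with collagenase and a Percoll gradient and transfected in culture, with Metafectene-Pro, with 1 µg of a miR-709 mimic (4 arrays, A to D) or of the control Cel-239b, a miRNA of the worm *C. elegans* (3 arrays, B to D). Total RNA was isolated 24 h later and hybridized to Affymetrix Mouse Gene 1.0 ST arrays. Both groups received a miRNA, and untransfected cells were not analysed here. The study asked which transcripts change when hepatocytes receive more miR-709, a miRNA of mouse liver. Neither the labels nor the methods say whether the replicates were separate mice or isolations. The p-values therefore cover no more than the variation among the 7 arrays, which may be technical.

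Hepatocytes store surplus fatty acids as triglyceride in lipid droplets, which have a core of neutral lipid and a single layer of phospholipid studded with proteins. Perilipins cover this surface and control the access of lipases. PLIN1 is best known from fat cells, PLIN2 is the main droplet coat of liver cells, PLIN3 moves between the cytosol and the droplet surface, PLIN4 coats droplets in fat cells, and PLIN5 belongs to tissues that burn fat. CIDE proteins gather where droplets touch and pass lipid from the smaller to the larger one. ATGL, the product of *Pnpla2*, takes the first fatty acid off a triglyceride, and CGI-58, the product of *Abhd5*, activates it.

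Values are log2 signals after RMA, so a difference of 1 is a doubling, and a signal is compared between arrays but not between genes. Signals ran from 1.92 to 14.08 over all probe sets, with an array median of 5.04 to 5.07. All 10 droplet genes had a mean of at least 5. The hepatocyte markers measured (7 of 8) had a mean log2 signal of 10.86 to 10.94 on the Cel-239b arrays and of 11.07 to 11.15 on the miR-709 arrays, which did not overlap. Of the 7, *Hnf4a* (log2 fold change 0.57) and *Tat* (0.62, adjusted p = 0.00763) were called higher and 0 were called lower. *Cyp2e1* had 0.25 (adjusted p = 0.128). The others hardly moved, with -0.03 (*Alb*), 0.03 (*Apoa1*), 0.01 (*Ttr*) and 0.03 (*Asgr1*), and the median of the 7 was 0.03. The shift of the mean was therefore not shared by all markers, and their part in the values of other genes was not tested. Adipocyte markers (5 of 6 measured) had a mean of 4.44 to 4.57 in Cel-239b and 4.49 to 4.53 in miR-709, and none was called changed. The mean of *Adipoq*, which only fat cells make in quantity, was 3.37. *Retn*, *Lpl* and *Lep* had means of 4.18, 3.74 and 3.51, but *Fabp4* had 7.79, so not every marker of this list was low. Averaged over 10 interferon response genes, arrays C and D of miR-709 lay 1.04 and 1.06 above the mean of Cel-239b, where arrays A and B lay at -0.11 and -0.04 and the Cel-239b arrays at -0.16 to 0.25. Results are therefore also given without arrays C and D, and without A and B.

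Only *Plin3* was called changed among the droplet genes, and it was 2.50-fold lower with miR-709. Treatments were compared with limma, with Benjamini-Hochberg adjustment over all genes, and a gene is called lower or higher at an adjusted p under 0.05. Of the 10 droplet genes, 1 was called lower, beside 1.47% of all genes, and 0 were called higher, beside 1.81% of all genes. The other 9 had log2 fold changes between 0.04 and 0.25, with adjusted p-values of 0.277 to 0.924. Among these 9, only *Pnpla2* had an unadjusted p under 0.05 in limma. The arrays of the treatments did not overlap for 2 of the 10 genes, *Plin3* and *Plin2*, beside 12.3% of all genes. With the methods' t-test (for 2 groups the same test as the analysis of variance with 1 factor that the study names for these arrays), 2 of the 10, *Plin3* and *Plin2*, had an unadjusted p under 0.01, beside 4.71% of all genes, and after adjustment 1 of the 10 was called, *Plin3*, beside 1.13% of all genes.

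**Figure D1:**
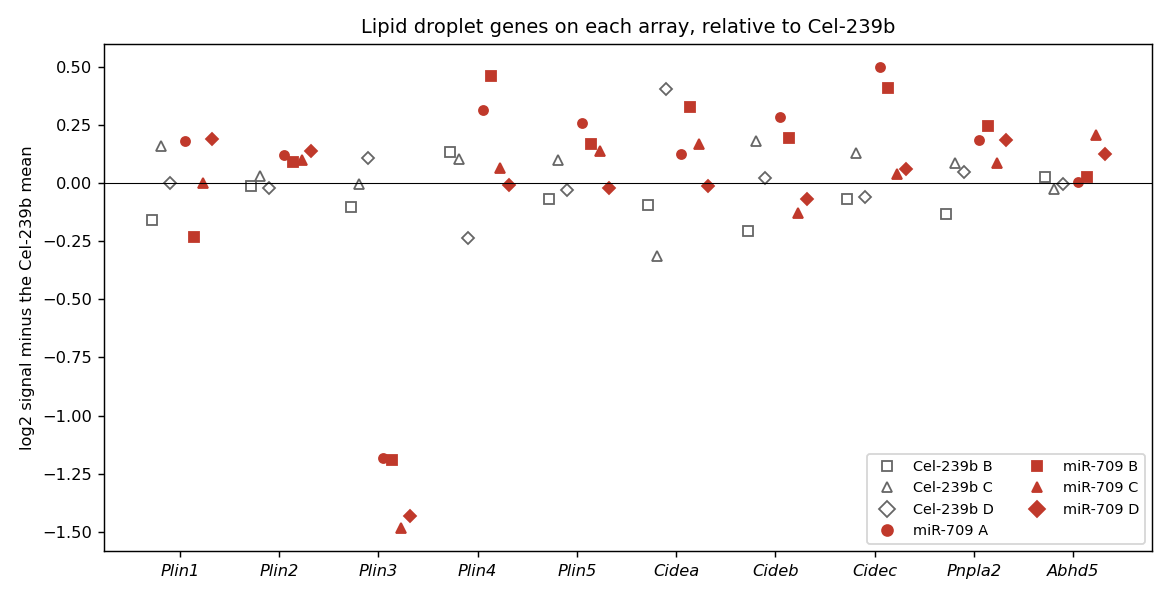
Log2 signal of each of the 10 genes (x axis) on each of the 7 arrays, with the mean of the 3 Cel-239b arrays subtracted (y axis); open grey symbols are Cel-239b arrays, filled red ones miR-709 arrays, and the shape gives the replicate letter. The 4 miR-709 arrays of *Plin3* lie more than 1 below the line, while those of the other genes reach no further than 0.50 from it.

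The coat protein PLIN3, also called TIP47 and M6PRBP1, was first described as a cargo adaptor that binds mannose 6-phosphate receptors on their way from endosomes to the Golgi. On the Cel-239b arrays B, C and D, the log2 signal of *Plin3* was 10.01, 10.11 and 10.22. On the miR-709 arrays A, B, C and D it was 8.93, 8.92, 8.63 and 8.68. Every miR-709 array was therefore more than 1 below every Cel-239b array. The means were 10.11 ± 0.11 (SD, n = 3) for Cel-239b and 8.79 ± 0.16 (SD, n = 4) for miR-709. *Plin3* fell by 1.32 on the log2 scale (log2 fold change -1.32, standard error 0.09, 95% interval -1.53 to -1.12, adjusted p = 1.24e-04 in limma), the decrease of rank 17 among the 19938 genes. In RNA of whole cultures, less RNA per cell cannot be told apart from fewer cells that make it. *Plin3* also stands in the study's list of lowered genes, which was chosen on these same arrays, so its direction is not independent evidence.

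Among the miR-709 arrays, *Plin3* was lower on C and D than on A and B. The log2 fold change was -1.19 without arrays C and D (adjusted p = 0.0101) and -1.46 without arrays A and B (adjusted p = 0.00214). *Plin3* was called lower under each of the 21 alternatives tried, with log2 fold changes of -1.46 to -1.19 and adjusted p-values of 2.41e-05 to 0.0189. With each array left out in turn, it was called every time.

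*Plin2* codes for adipophilin, the coat protein of most droplets in hepatocytes. Its log2 signal was 12.19, 12.23 and 12.18 on the Cel-239b arrays B, C and D, and 12.32, 12.29, 12.30 and 12.34 on the miR-709 arrays A, B, C and D. All miR-709 arrays were above all Cel-239b arrays, by a small margin. The means were 12.20 ± 0.026 (SD, n = 3) and 12.31 ± 0.022 (SD, n = 4), a ratio of 1.08. In limma the log2 fold change was 0.11 (standard error 0.05, 95% interval -0.004 to 0.23) and was not called (adjusted p = 0.350). The methods' t-test, which takes the spread of this gene alone, gave an adjusted p of 0.0838. Without arrays C and D the log2 fold change was 0.10, and without A and B it was 0.12. The residual SD of *Plin2*, 0.024, was among the lowest 1.04% of all genes, and limma pulls so small a spread towards that of the other genes.

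*Plin5*, the perilipin of oxidative tissues, which also tethers droplets to mitochondria, had log2 signals of 6.26, 6.43 and 6.30 on the Cel-239b arrays and 6.59, 6.50, 6.47 and 6.31 on the miR-709 arrays A to D. Array D lay within the range of Cel-239b, and the other miR-709 arrays lay above it. Its log2 fold change was 0.14 (standard error 0.08, 95% interval -0.04 to 0.31, adjusted p = 0.460). Without arrays C and D it was 0.21, and without A and B it was 0.06, with no call in either fit.

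*Plin4* had log2 signals of 6.18, 6.15 and 5.81 on the Cel-239b arrays and 6.36, 6.51, 6.11 and 6.04 on the miR-709 arrays A to D. Its miR-709 arrays A and B were above all Cel-239b arrays, while C and D lay inside their range. For *Plin4* the log2 fold change was 0.21 (standard error 0.13, 95% interval -0.08 to 0.50, adjusted p = 0.513). It was 0.39 without arrays C and D and 0.03 without arrays A and B. A single array moved it as well, to 0.09 without array D of Cel-239b and to 0.12 without array B of miR-709, and it was called in none of these fits.

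*Plin1*, the perilipin of white fat cells, had log2 signals of 5.03, 5.35 and 5.19 on the Cel-239b arrays and of 5.37, 4.96, 5.19 and 5.38 on the miR-709 arrays A to D. The groups overlapped, and the log2 fold change was 0.04 (standard error 0.11, 95% interval -0.22 to 0.29, adjusted p = 0.924). Leaving out 1 array took it from -0.045 (without array B of Cel-239b) to 0.12 (without array B of miR-709). It was -0.025 without arrays C and D of miR-709 and 0.095 without A and B of miR-709.

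**Figure D2:**
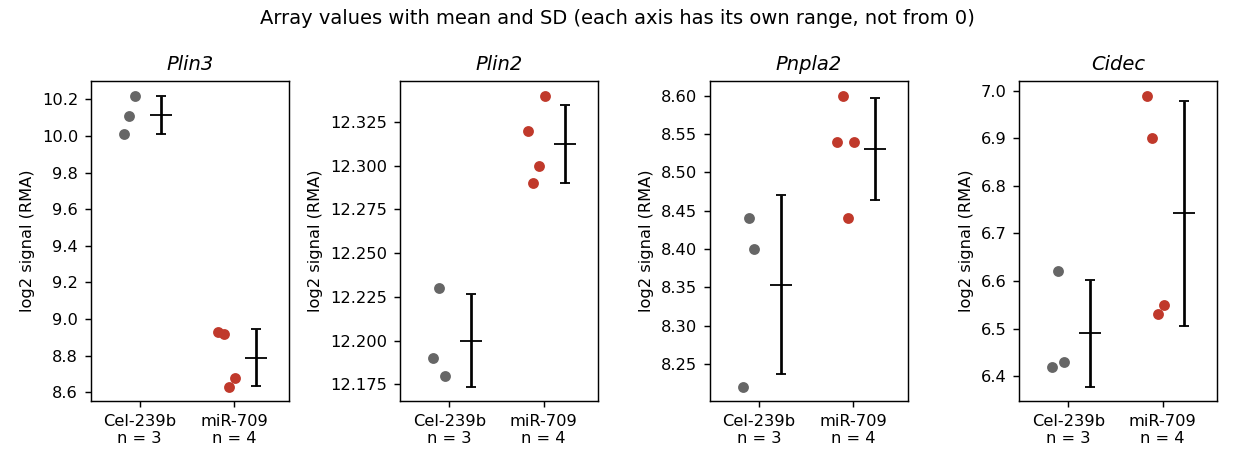
Log2 RMA signal (y axis, a separate range for each gene that does not start at 0) of *Plin3*, *Plin2*, *Pnpla2* and *Cidec* on the 3 Cel-239b and the 4 miR-709 arrays; points are arrays, and the bars show mean and SD. The groups stand apart for *Plin3* (means 10.11 and 8.79) and, on a much narrower axis, for *Plin2* (12.20 and 12.31), and meet or overlap for *Pnpla2* and *Cidec*.

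Whether *Plin3* changed differently from the other perilipins was compared within arrays, as the log2 signal of *Plin3* minus that of each other perilipin. Relative to *Plin2*, this difference was -2.18, -2.12 and -1.96 on the Cel-239b arrays and -3.39, -3.37, -3.67 and -3.66 on the miR-709 arrays A to D. The difference of the group means was -1.44 against *Plin2*, -1.36 against *Plin1*, -1.53 against *Plin4* and -1.46 against *Plin5*. In all 4 pairs the miR-709 arrays lay below all Cel-239b arrays. The 4 pairs share the same *Plin3* values, so they are not independent of each other or of the fall of *Plin3* given above. The exact permutation test gave p = 0.0571 for each pair (2-sided, adjusted over 4 pairs 0.0571), which is the smallest p that the 35 arrangements of 4 and 3 arrays allow, so this test cannot reach 0.05. With each array left out in turn, the differences ranged from -1.65 to -1.27.

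*Plin3*, *Plin4* and *Plin5* lie on mouse chromosome 17 (gene order of assembly GRCm38.p6). *Plin4* and *Plin5* are direct neighbours, and 7 other protein-coding genes lie between *Plin5* and *Plin3*. This stretch was looked at after the values of the perilipins had been seen. All 16 protein-coding genes from *Chaf1a* to *Kdm4b* were measured, and of the 15 other than *Plin3*, 0 were called in either direction by limma. Their log2 fold changes ran from -0.20 (*Tnfaip8l1*) to 0.28 (*Lrg1*). The genes on either side of *Plin3* were *Ticam1*, with 0.09 (standard error 0.06), and *Arrdc5*, with -0.05 (standard error 0.09).

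**Figure D3:**
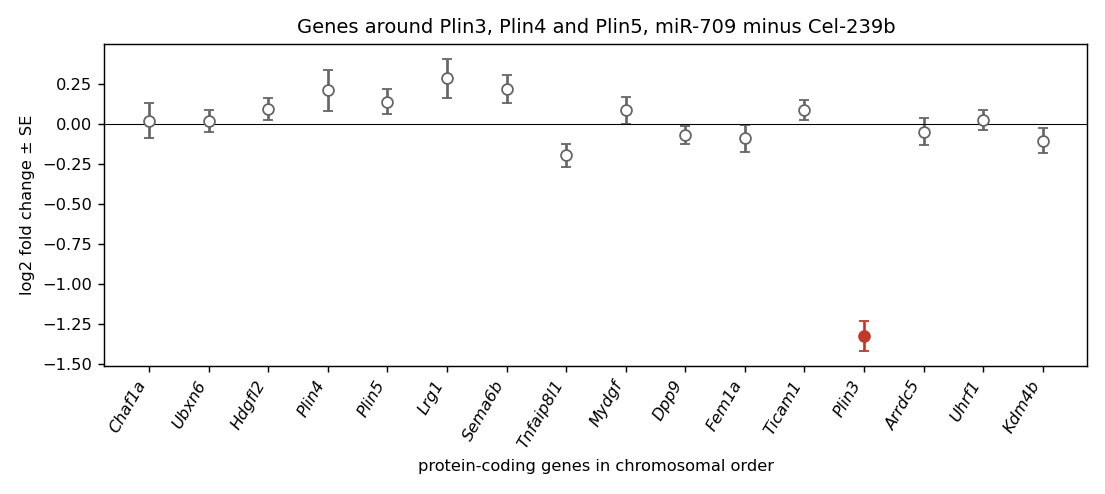
Log2 fold change between miR-709 and Cel-239b (y axis, points with standard error from limma) of 16 protein-coding genes in their order along chromosome 17 (x axis, not to scale). *Plin3*, filled, is the one called gene at -1.32, and the other 15 lie between -0.20 and 0.28.

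The 3 genes whose values over the 7 arrays lay nearest to those of *Plin3* were *Mpzl2*, *Nop16* and *Myo1d*. After each gene's own mean was subtracted, their root mean square difference from *Plin3* was 0.083, 0.10 and 0.102 on the log2 scale, with log2 fold changes of -1.27, -1.45 and -1.21. A likeness over 7 arrays mostly repeats the size of the change and is given as a description.

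Of the CIDE genes, none was called changed. *Cideb*, the family member of hepatocytes, which also takes part in loading lipid onto very low density lipoprotein, had log2 signals of 9.84, 10.23 and 10.07 on the Cel-239b arrays and 10.33, 10.24, 9.92 and 9.98 on the miR-709 arrays A to D. Arrays A and B were higher than the Cel-239b arrays, and C and D were inside their range. The log2 fold change was 0.07 (standard error 0.12, 95% interval -0.20 to 0.34, adjusted p = 0.845), and it was 0.24 without arrays C and D and -0.10 without arrays A and B. With 1 array left out it ran from -0.0325 (without array B of Cel-239b) to 0.16 (without array C of Cel-239b), and it was 0 without array A of miR-709.

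*Cidec*, also called Fsp27, promotes large droplets in fat cells and in fatty liver. It had log2 signals of 6.42, 6.62 and 6.43 on the Cel-239b arrays and 6.99, 6.90, 6.53 and 6.55 on the miR-709 arrays A to D. Here too, arrays A and B were above all Cel-239b arrays and C and D were not. The log2 fold change, 0.25 (standard error 0.12, 95% interval -0.02 to 0.52, adjusted p = 0.373), was the highest of the 10 genes. It was 0.46 without arrays C and D (adjusted p = 0.103) and 0.05 without arrays A and B.

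*Cidea*, known from brown fat, had the widest spread of the 10 genes on the Cel-239b arrays, with log2 signals of 5.60, 5.38 and 6.10. The miR-709 arrays A to D, at 5.82, 6.02, 5.86 and 5.68, all lay inside this range. For *Cidea* the group means differed by 0.15 on the log2 scale (standard error 0.15, 95% interval -0.19 to 0.49, adjusted p = 0.704). Array C of Cel-239b and array D of Cel-239b each weighed on this value, which was -0.005 without C and 0.35 without D. It was 0.09 without array B of miR-709, 0.23 without arrays C and D of miR-709 and 0.08 without A and B.

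Neither the lipase nor its activator was called changed. *Pnpla2* had log2 signals of 8.22, 8.44 and 8.40 on the Cel-239b arrays and 8.54, 8.60, 8.44 and 8.54 on the miR-709 arrays A to D. The lowest miR-709 array equalled the highest Cel-239b array, and the other miR-709 arrays were higher. For *Pnpla2* the group means differed by 0.18 on the log2 scale (standard error 0.07, 95% interval 0.02 to 0.34), which was not called after adjustment over all genes (adjusted p = 0.277 in limma). It was 0.22 without arrays C and D, 0.14 without arrays A and B and 0.11 without array B of Cel-239b.

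*Abhd5* had log2 signals of 9.17, 9.12 and 9.14 on the Cel-239b arrays and 9.15, 9.17, 9.35 and 9.27 on the miR-709 arrays A to D. In contrast to *Cidec*, its higher miR-709 arrays were C and D. For *Abhd5* the group means differed by 0.09 on the log2 scale (standard error 0.06, 95% interval -0.05 to 0.24, adjusted p = 0.566). This difference was 0.02 without arrays C and D, 0.17 without arrays A and B and 0.05 without array C alone, and was not called in any of these fits.

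**Figure D4:**
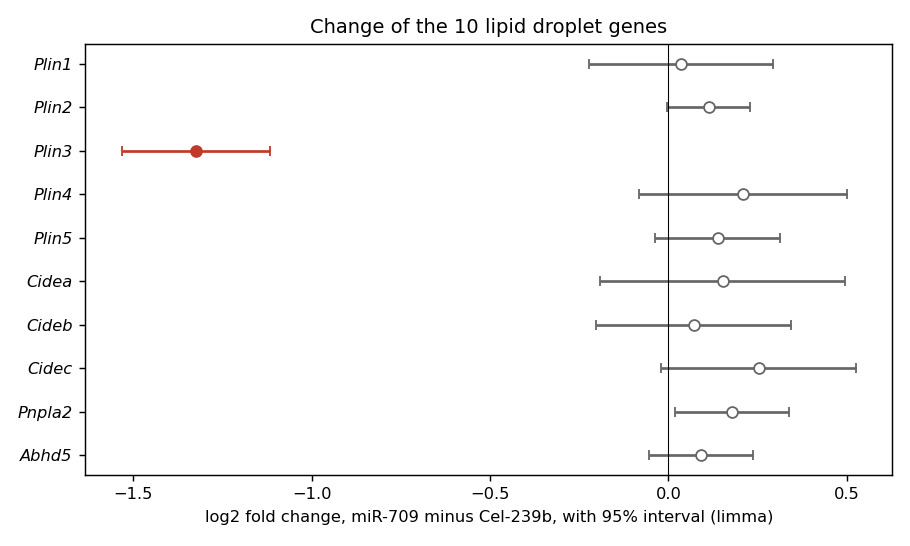
Log2 fold change between miR-709 and Cel-239b (x axis) of each of the 10 genes (y axis), with 95% intervals from limma; the filled point was called at an adjusted p under 0.05. The interval of *Plin3*, -1.53 to -1.12, lies below all others, and the lower ends of the other 9 reach no further than -0.22.

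The other 9 genes all had a log2 fold change above 0, with a median of 0.14, and with *Plin3* the median of the 10 was 0.13. Over all genes, 54.9% were above 0 with a median of 0.01, and over the genes with a mean of at least 5 these were 56.6% and 0.02. None of the 9 was called in limma. No drop larger than 1.17-fold was inside the 95% interval of any of the 9. Further quantile normalization, cyclic loess and median centring left all 9 above 0. Without array B of Cel-239b or array A of miR-709, 7 of the 9 were above 0.

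The droplet genes were set beside 7 lists of genes of the same pathways, 92 of whose 99 genes were measured. Of the 92, 2 were called lower (2.17%, beside 1.47% of all genes) and 11 called higher (12%, beside 1.81% of all genes). The median log2 fold change was 0.06. The lists were chosen with earlier results of these data known, so these shares are not independent evidence. Most list genes also had a mean of at least 5. In a fit of the 10970 genes with such a mean, 485 were called higher, 13 of them in the lists. The count of higher genes in the lists was 7 without array C of Cel-239b, 7 without array C of miR-709, 4 without arrays C and D of miR-709 and 4 without arrays A and B. Over all 19938 genes, the counts called higher in these fits were 180, 233, 76 and 140, beside 361 with all arrays. The count thus fell over all genes as well as in the lists. For each gene named below, the number of the 21 alternatives that called it is given.

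Among the other lipases and lipolysis regulators (15 of 15 measured), 2 were called lower and 1 higher, with a median of -0.02. *Ces1g*, a liver carboxylesterase that hydrolyses lipid esters, had log2 signals of 7.49, 7.59 and 7.80 on the Cel-239b arrays and 6.07, 6.16, 5.82 and 5.70 on the miR-709 arrays A to D. It fell by 1.69 on the log2 scale (adjusted p = 1.29e-04, called in 21 of 21), a 3.22-fold decrease. The study lists *Ces1* among its lowered genes and names *Ces1g* in its text. It also reports the *Ces1g* decrease by quantitative RT-PCR. In its luciferase assay, miR-709 lowered a reporter that carried part of the *Ces1g* untranslated region. The probe set used here can take up transcripts of close relatives of *Ces1g*. *Ddhd2*, a triglyceride lipase best known from brain, fell by 0.51 (adjusted p = 0.00787, 19 of 21). *Faf2* (UBXD8), a droplet protein that draws ATGL away from its activator, rose by 0.47 (adjusted p = 0.00534, 18 of 21). *Lipa*, the acid lipase of lysosomes, had 0.16 (adjusted p = 0.397). *G0s2*, an inhibitor of ATGL, had -0.04 (95% interval -0.18 to 0.10), and *Lipe*, the hormone-sensitive lipase, had 0.06 (95% interval -0.06 to 0.19).

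Of the genes of droplet formation and neutral lipid synthesis, 19 of 23 were measured, and 0 were called lower and 2 higher, with a median of 0.05. *Pcyt1a*, the enzyme that sets the pace of phosphatidylcholine synthesis and supplies the droplet monolayer, rose by 0.73 (adjusted p = 0.00504, 18 of 21). *Lpin2*, a phosphatidate phosphatase that makes diacylglycerol, rose by 0.50 (adjusted p = 0.00773, 18 of 21). *Agpat2*, an acyltransferase of phosphatidate synthesis, and *Fitm1*, which helps droplets bud from the endoplasmic reticulum, had 0.26 (adjusted p = 0.196) and 0.23 (adjusted p = 0.256).

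The other droplet surface proteins (15 of 15 measured) had 0 called lower and 2 called higher, with a median of 0.04. *Dhrs3*, a retinal reductase found on droplets, rose by 0.60 (adjusted p = 0.0140, 14 of 21). *Hsd17b13*, a liver enzyme of the droplet surface, rose by 0.31 (adjusted p = 0.0352), a call that 9 of the 21 alternatives made. *Mettl7b* had 0.34 (adjusted p = 0.124), and *Rdh10*, a retinol dehydrogenase, had 0.21 (adjusted p = 0.25).

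Because PLIN3 also binds mannose 6-phosphate receptors, genes of that sorting route were described as well (8 of 9 measured, *M6pr* had no probe set of its own here). In limma, 0 were called lower and 0 higher, with a median of 0.05. *Vps35* had 0.18 and *Vps26a* 0.14, both parts of the retromer complex (adjusted p = 0.151 and 0.420). *Vps35* was the one of these genes with an unadjusted p under 0.05. *Rab9b*, a relative of the GTPase of this route, had -0.10, at a low mean log2 signal of 4.48. *Rab9*, which codes for that GTPase, had a mean of 6.40 and a log2 fold change of 0.04 (95% interval -0.17 to 0.25). The golgin gene *Gcc2* had 0.08, and *Igf2r*, the large mannose 6-phosphate receptor, had 0.02 (95% interval -0.25 to 0.29).

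PPARα is a receptor for fatty acids that switches on genes of fat use in liver, and *Plin2* and *Plin5* are among its known targets. Of 15 other targets, 13 were measured, with 0 called lower and 3 called higher and a median of 0.17. *Ehhadh*, of peroxisomal fatty acid oxidation, had log2 signals of 7.04, 7.16 and 7.08 on the Cel-239b arrays and 8.10, 8.16, 8.03 and 8.08 on the miR-709 arrays A to D, which do not overlap. It rose by 1.00 (adjusted p = 6.71e-05, 21 of 21). *Cd36*, a fatty acid uptake protein, rose by 0.85 (adjusted p = 0.00195, 20 of 21), and *Pdk4*, a kinase that restrains pyruvate dehydrogenase, rose by 0.48 (adjusted p = 0.0115, 16 of 21). *Angptl4*, a secreted inhibitor of lipoprotein lipase, had 0.24 (adjusted p = 0.305).

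Of the transcription regulators of droplet genes (12 of 12 measured), 0 were called lower and 1 higher, with a median of 0.08. *Hnf4a*, a master regulator of hepatocyte genes, had log2 signals of 9.45, 9.43 and 9.31 on the Cel-239b arrays and 9.94, 9.95, 9.93 and 10.03 on the miR-709 arrays A to D. It rose by 0.57 (adjusted p = 0.00104, 21 of 21). *Ppara* itself had 0.02 (95% interval -0.10 to 0.14), and *Pparg* had 0.11 (95% interval -0.02 to 0.23). *Nr1h3* (LXRα) had 0.31 (adjusted p = 0.160), *Creb3l3* 0.23 (adjusted p = 0.350) and *Ppargc1a* 0.15 (adjusted p = 0.608).

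In lipophagy, droplets are engulfed and digested in lysosomes, and perilipins are removed from the surface first. Of 10 genes of lipophagy and the lysosome, all were measured, and 0 were called lower and 2 higher, with a median of 0.08. *Sqstm1* (p62), an adaptor for autophagic cargo, rose by 0.49 (adjusted p = 0.0169, 15 of 21). *Lamp2*, a lysosomal membrane protein, rose by 0.32 (adjusted p = 0.0274, 12 of 21). *Rab7* had 0.27 (adjusted p = 0.0706) and *Atg7* 0.14 (adjusted p = 0.344).

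**Figure D5:**
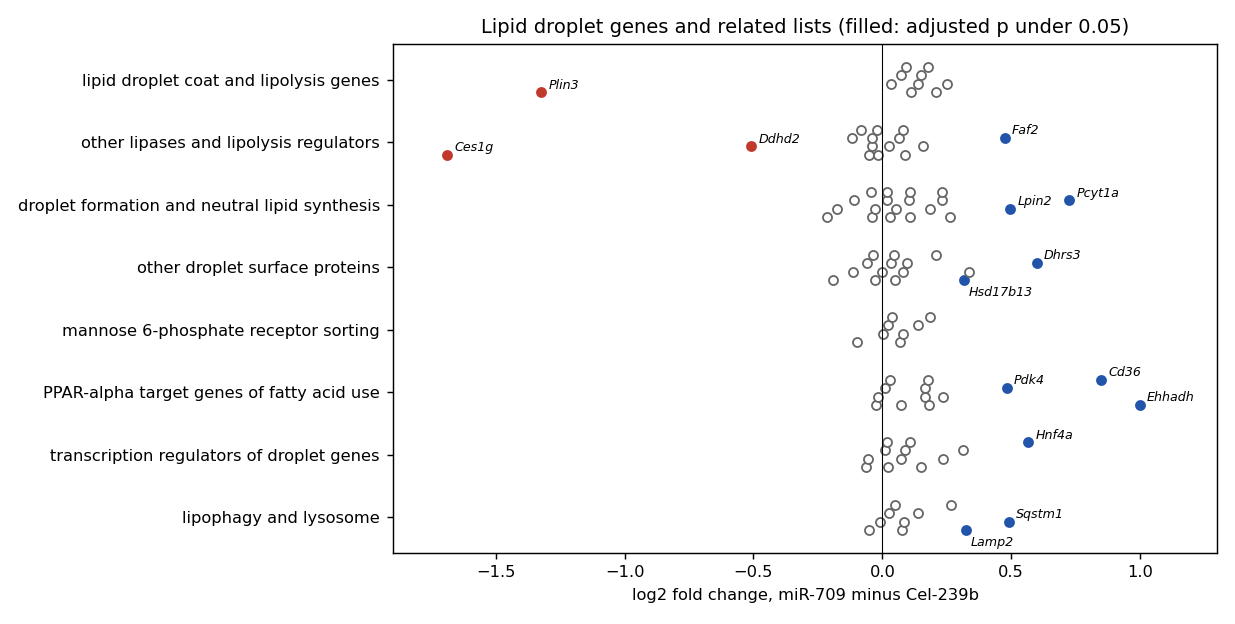
Log2 fold change between miR-709 and Cel-239b (x axis) of the 10 droplet genes (top row) and of the measured genes of 7 related lists (other rows); each point is a gene, and filled points, with names, were called lower (red) or higher (blue) in limma. *Plin3* at -1.32 and *Ces1g* at -1.69 lie furthest to the left, and *Ehhadh* at 1.00 furthest to the right.

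Markers of other liver cells were measured beside these genes. None of 7 stellate cell, 6 Kupffer cell and leukocyte and 6 sinusoidal endothelial markers was called. Their list means were low, at 4.79 to 4.91, 3.648 to 3.825 and 4.90 to 5.01 over the arrays. Only 3, 0 and 4 of these markers had a mean of at least 5, and at low signals a fall would hardly show. The brightest stellate marker, *Reln* (mean 6.1), had a log2 fold change of -0.26 (unadjusted p = 0.0248, adjusted p = 0.241 in limma). Its arrays overlapped between the treatments. Of the 7 stellate markers, 5 had a log2 fold change below 0 and 2 above 0. The stellate list did not hold *Acta2*, *Tagln* or *Cnn1*, which the study lists as lowered on these arrays. The mean log2 signal of each of these lists differed by less than 0.2 between any 2 arrays. Of 4 cholangiocyte markers, *Krt19* was called lower (log2 fold change -1.23, adjusted p = 0.0377), and their mean was 6.84 to 7.04 on the Cel-239b arrays and 6.33 to 6.70 on the miR-709 arrays. The other markers were not called, with log2 fold changes of -0.29 (*Krt7*), -0.30 (*Sox9*) and 0.09 (*Epcam*). Within miR-709 the mean of this list was lowest on arrays C and D, as was *Plin3*. *Krt19* weighed most on this, with 8.97, 8.73, 7.91 and 7.79 on arrays A to D. *Krt7*, at 5.11, 5.35, 5.12 and 5.35, did not follow it. The part of stellate cells, of cholangiocytes or of the interferon response genes in the values above was not tested.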

How the data were processed

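Hepatocyte RNA from 7 arrays was analysed. The authors deposited log2 signals per probe set, computed with Partek by RMA, which corrects background, equalises the distribution of signals across arrays and summarises probes. Versions and genome build are not given in the sources used here, and raw scans were not used here. Of 28853 probe sets, 21789 had 1 symbol, 1621 several and 5443 none. For 999 genes with several, the brightest was taken. limma (version 3.58.1, R version 4.3.3) fitted 2 groups over all 19938 genes, 2-sided, without a filter. The number of arrays limits the precision (median standard error 0.08). The members and lists were chosen with earlier results of these data known. Named were all members, up to 4 genes a list (called genes before others, then by size of change), and the 3 genes nearest to a called member (mean of at least 5). *G0s2*, *Lipe*, *Igf2r*, *Rab9*, *Ppara*, *Pparg*, the marker genes and the chromosomal neighbours were added to these with their values known. The fit was tested on simulated data. Alternatives (19 planned, 2 added after seeing the data) covered limma-trend, the methods' t-test, probe sets, filters (5 and 6), normalization, array weights, the replicate block and each array left out. The study's own comparisons were not used.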

Additional observations from a re-analysis of the deposited data

How the results depend on the processing

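*Plin3* was called lower, and 0 droplet genes were called higher, under each of the 21 alternatives. Among the pathway lists, the methods' t-test called 1 gene lower and 3 higher, and leaving out arrays miR-709 A and B gave 1 lower and 4 higher. Leaving out arrays miR-709 C and D gave 4 higher, and each array left out in turn gave 7 to 9 higher. Over all genes, 293 were called lower and 361 higher, against 113 and 113 by the methods' t-test, 181 to 244 and 180 to 294 with 1 array left out, 92 and 76 without arrays miR-709 C and D, and 175 and 140 without A and B. The causes were not tested, although fewer arrays entered the fits that leave arrays out. The sign of some small, uncalled changes turned. With 1 array left out, log2 fold changes ran from -0.045 to 0.12 (*Plin1*), -0.005 to 0.35 (*Cidea*), -0.0325 to 0.16 (*Cideb*) and -0.0075 to 0.14 (*Gcc2*). Without arrays C and D, *Plin1* had -0.025. Without A and B, *Cideb* had -0.10, *Rab9b* 0.023 and *Ppargc1a* -0.042.

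Deviations of same-letter arrays correlated at only 0.02 to 0.05, so the letters were not taken to pair the arrays. With the letter as a fixed replicate block over arrays B to D, 221 genes were lower and 180 higher, of which 9 higher in the pathway lists, and *Plin1* had -0.013. As a random replicate block, it gave 294 and 365.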
